A study of Mus musculus with 3 samples.

Results

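RNA-seq gene counts of the IKVAV PA + PEDOT-S library were compared with those of the PDL control library, 2 of the 3 libraries of a series on cultured cortical neurons of wildtype CD1 mice. A peptide amphiphile (PA) is a peptide with a fatty tail that assembles into nanofibres, and IKVAV is a short sequence of the matrix protein laminin that cells bind. The added component is named PEDOT-S_OH in the library name and PS2 in the sample title. It was taken here to be PEDOT-S, a water-soluble sulfonated form of the conducting polymer PEDOT. The control library carries the label PDL, which the labels do not spell out. All 3 libraries share genotype, strain and cell type and an identical entry in the treatment field, so groups were read from the library names. The labels give no age, culture time or dose and name repeat 3 for each library. Cultures of cortex hold mainly postmitotic neurons, with dividing progenitors, astrocytes, oligodendrocyte precursors and a few cells of the meninges and vessels beside them.

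The deposited files list 54232 genes, of which 13683 had at least 1 CPM (a gene's count scaled to a fixed library depth) in either library and were compared. Total counts were 79057998 for IKVAV PA + PEDOT-S and 78993105 for PDL, and the genes compared held 99.8% of both. Each group has 1 library, so no difference below has a replicate check and no test between conditions was possible. A gene is called higher or lower where the 95% counting interval of its ratio of depth-scaled counts lay wholly beyond 1.5-fold. These intervals, given on the log2 scale, cover counting error only, and the calls describe the libraries, not the conditions. Medians of gene lists are log2 ratios, IKVAV PA + PEDOT-S over PDL, with a prior count of 2.

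The difference between the libraries was one-sided. In the IKVAV PA + PEDOT-S library 61 of the 13683 genes (0.446%) were higher than in PDL, whereas 515 (3.76%) were lower, 4.21% in all. The median log2 ratio over all genes was 0.00, the lowest 5% of genes lay under -0.70 and the highest 5% over 0.31. With the interval wholly beyond 2-fold 13 genes were higher and 257 lower, and beyond 4-fold 2 and 40. Low genes made up most of the lower group. Among genes with a mean under 2 CPM 12.1% were lower, from 5 to 20 CPM 4.19%, and at 100 CPM or more 0.0776%, which were 2 of 2576 genes. The lowest class includes genes that passed the filter through 1 library alone, such as Cnn1 (0.255 against 2.03 CPM) and Mal (1.53 against 0.163). The part of the filter in the share by level was not tested. Lists below also hold genes that passed through 1 library, and no list was matched to other genes by level. Counts of list members are to be read beside the shares of all genes. Higher genes were spread more evenly, from 0.920% of the lowest to 0.194% of the highest class. Protein-coding genes were 52 of the higher and 496 of the lower genes. Of the higher genes 20 share over 10% of their exonic bases with another gene, against 13.3% of all genes compared, and their values are uncertain.

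**Figure D1:**
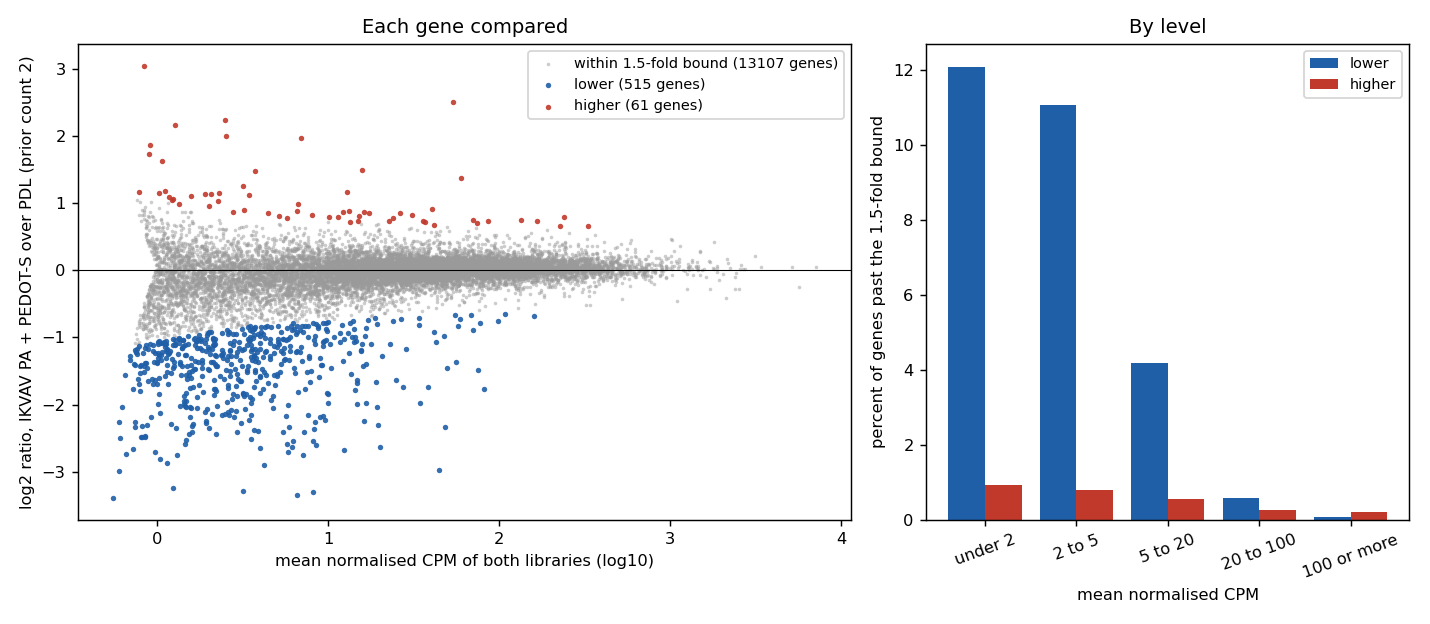
Left, each point is a gene, with its mean normalised CPM in both libraries (log10) against its log2 ratio, IKVAV PA + PEDOT-S over PDL; blue points are the 515 lower and red points the 61 higher genes. Right, bars give the percent of genes past the 1.5-fold bound by mean CPM, and the lower share falls from 12.1% under 2 CPM to 0.0776% at 100 CPM or more.

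Markers of the labelled cell type, cortical neurons, were abundant in both libraries. All 20 pan-neuronal genes were compared, none was called, and their median was 0.03. They include Map2 (2375 against 2445 CPM), a microtubule protein of dendrites, and Rbfox3, the nuclear protein NeuN (log2 ratio 0.17). Some lineages were nearly absent. Of 20 microglia and macrophage markers 3 passed the CPM filter, and the defining genes Cx3cr1 and Tmem119 had 16 and 8 counts in the IKVAV PA + PEDOT-S library and 14 and 6 in PDL. None of 9 erythroid genes passed it. Endothelial markers passed in 4 of 14 cases, with Cdh5, the cadherin of endothelial junctions, at 2 and 1 counts. The VEGF receptors Flt1 and Kdr were lower in that list (-1.84 and -1.20). In bulk RNA, fewer cells of a type and less RNA per cell cannot be told apart, and this holds for every list below.

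Genes of mesenchymal cells, which make collagen and contract, were the lowest of the cell classes. Of 15 meningeal fibroblast markers 8 were compared and 7 were lower (median -1.47), and their summed level, filtered members included, was 72.8 CPM against 165 in PDL. Of 14 mural cell markers, genes of pericytes and vascular smooth muscle, 6 were compared and all 6 were lower (median -1.37, summed level 23.4 against 114 CPM). Acta2, the smooth muscle actin (chr19:34241090-34255590, GRCm38), had 782 counts against 6257, or 9.98 against 78.5 CPM. This made a difference of 7.87-fold (log2 ratio -2.98, with a 95% interval from -3.08 to -2.87). Pdgfrb and Rgs5, 2 markers of pericytes, stood at 1.94 against 5.60 CPM and 3.25 against 7.65 CPM. The other 15 markers of these lists were too low to be compared, with fewer counts than in PDL for 12, equal counts for 1 and more for 2. Tagln, transgelin of smooth muscle, had 6 counts against 30, Myh11, the smooth muscle myosin, 20 against 51, and Lum, the fibroblast proteoglycan lumican, 7 against 20, whereas Vtn, vitronectin, had 39 against 40 and Crabp2, a retinoic acid binding protein, 27 against 25.

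Of 18 smooth muscle contractile genes 15 were compared and 10 were lower, with a median of -1.46. The calponins Cnn1 and Cnn2, which bind actin in smooth muscle and beyond, were at -2.99 (20 against 162 counts) and -1.78. The myosin light chain Myl9 stood at 2.27 against 12.2 CPM and Cald1, caldesmon, at 17.8 against 59.2 CPM. By contrast Actb and Actg1, the cytoplasmic actins, were at 0.02 and 0.04, and the general myosin light chain Myl6 at -0.09. Among 17 compared genes of non-muscle actin, myosin and adhesion plaques 4 were lower (median -0.21). These were Tln1 (-0.82), which links integrins to actin, Myh9 (-0.67), Myh14 (-1.12) and Actn1 (-0.67). None of these 4 calls was left with a 2-fold bound or with an assumed biological variation of 0.2.

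Annexins, which bind acidic membrane lipids with calcium, were lower in 6 of 8 compared members (of 12 annotated). Anxa2 was at 2.69 against 14.0 CPM, Anxa3 at 1.29 against 5.81 and Anxa1 at 0.562 against 2.35, while Anxa7 had a log2 ratio of -0.10. Caveola genes, whose products shape the small flask-like pits of the cell surface, were lower in 6 of 10 (median -1.20). Cavin1 stood at 3.23 against 14.8 CPM and Cav2 at 0.408 against 2.18, whereas Cav1, the main caveolin, was at -0.30 and within the bound. S100a6 and S100a11, small calcium-binding proteins, were at -2.60 and -2.11, and galectin-1 (Lgals1) was 6.81-fold lower (144 against 998 counts). None of 20 compared tetraspanins and CD9-type proteins was called (median 0.01).

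Across 14 lists of matrix genes and their receptors, 71 of 172 compared genes (41.3%) were lower and none was higher. Over all genes 3.76% were lower and 0.446% higher. The lower share of all genes was 12.1% under 2 CPM and 11.1% from 2 to 5 CPM. The 172 genes were not matched to others by level. Collagens are secreted triple-helical proteins, and 31 of 44 annotated chains were compared. Of these 18 were lower, with a median of -1.20. Summed over the 44 chains, the level was 205 CPM in the IKVAV PA + PEDOT-S library against 447 in PDL. The fibrillar chains Col1a1, Col1a2, Col3a1, Col5a1 and Col5a2 were all lower. Col1a1 (chr11:94936224-94953042) had 439 counts against 2785 and was 6.24-fold lower (interval -2.79 to -2.50), and Col5a2 was at 13.9 against 54.9 CPM. Col8a1, a network-forming chain, was at 2.41 against 14.7 CPM. The paired basement membrane chains Col4a1 and Col4a2 differed in size, with log2 ratios of -1.46 (26.4 against 72.5 CPM) and -0.42. Col25a1, a membrane collagen of neurons, was at -0.11.

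Laminins, the heterotrimers from which the IKVAV sequence is taken, were measured by 9 of 11 chains. All 9 had a ratio below 1 and 4 were called lower (median -0.76). Among these were Lama5 (2.79 against 12.5 CPM), Lamb2 (266 against 741 counts) and Lamc1 (32.1 against 62.9 CPM). Lama1, the alpha chain that carries IKVAV in the mouse protein, was at -0.67 and within the bound, and Lamb1 was at -0.02. Other basement membrane genes were lower in 8 of 13. Sparc, which binds collagen, stood at 15.8 against 80.3 CPM, the proteoglycan perlecan (Hspg2) at 7.52 against 31.0 and nidogen Nid1 at 3.62 against 8.39. Agrn and Dag1, the agrin and dystroglycan genes that neurons also express, were at -0.05 and -0.10.

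Enzymes that finish collagen were lower in 7 of 15 compared members (median -0.42). Lox, the oxidase that cross-links collagen and elastin, had 91 counts against 959, 10.4-fold lower (interval -3.70 to -3.06). Its relatives Loxl1 and Loxl2 were at -2.30 and -2.41. Serpinh1, the collagen chaperone HSP47, stood at 6.60 against 32.5 CPM, and the lysyl hydroxylases Plod1 and Plod2 at -1.29 and -1.02. The third lysyl hydroxylase, Plod3, was at -0.03.

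Matricellular genes, whose products sit in the matrix without building its fibres, were lower in 9 of 14 (median -1.49). Thbs1, the adhesive protein thrombospondin 1, stood at 36.9 against 126 CPM. Of the CCN family, whose members Ccn1 and Ccn2 are classical targets of the YAP coactivator, Ccn1 was at 9.11 against 29.0 CPM, Ccn2 (23% of its exonic bases shared) at 3.38 against 15.9 and Ccn4 at 0.919 against 5.01. Ccn3, the member made by cortical neurons, had 1508 counts against 1754 (-0.19). The small leucine-rich proteoglycans were lower in 5 of 6 compared members of 11, with biglycan (Bgn) at 2.39 against 13.9 CPM and decorin (Dcn) at 2.32 against 4.67. Ncan, Vcan and Acan, lecticans of brain matrix, were at 0.02, -0.11 and -0.15, and of their list 3 of 10 were lower. These were Bcan (-1.35), a lectican of glia, the link protein Hapln1 (-0.87) and the hyaluronan receptor Cd44 (77 against 594 counts, 7.58-fold lower).

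Integrins are the alpha-beta receptors for this matrix, and 14 of 26 annotated subunits were compared. The median was -0.46 and 5 of them were lower. Itga5 and Itgav, alpha chains of fibronectin and vitronectin receptors, stood at 0.664 against 3.23 CPM and 7.96 against 18.7. Itgb5, a partner of Itgav, was at 3.29 against 9.60. Itga1 (-1.40), of a collagen receptor, and Itga7 (-1.39), of a laminin receptor, were lower too. The laminin receptor chains Itga3 and Itga6 were at -0.13 and -0.43, and Itgb1, the beta chain they share, was at 78.8 against 111 CPM (-0.49), all within the bound. Of 11 compared metalloproteinases and TIMPs 3 were lower (27.3%, median -0.03). Of 17 compared ADAMTS proteases 2 were lower (11.8%, median -0.25), against 3.76% of all genes. Mmp2, gelatinase A (0.702 against 3.12 CPM), its activator Mmp14 (-1.16) and Adamts12 (-2.53) were lower, while Timp2 and Mmp24 were at 0.08 and 0.09.

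**Figure D2:**
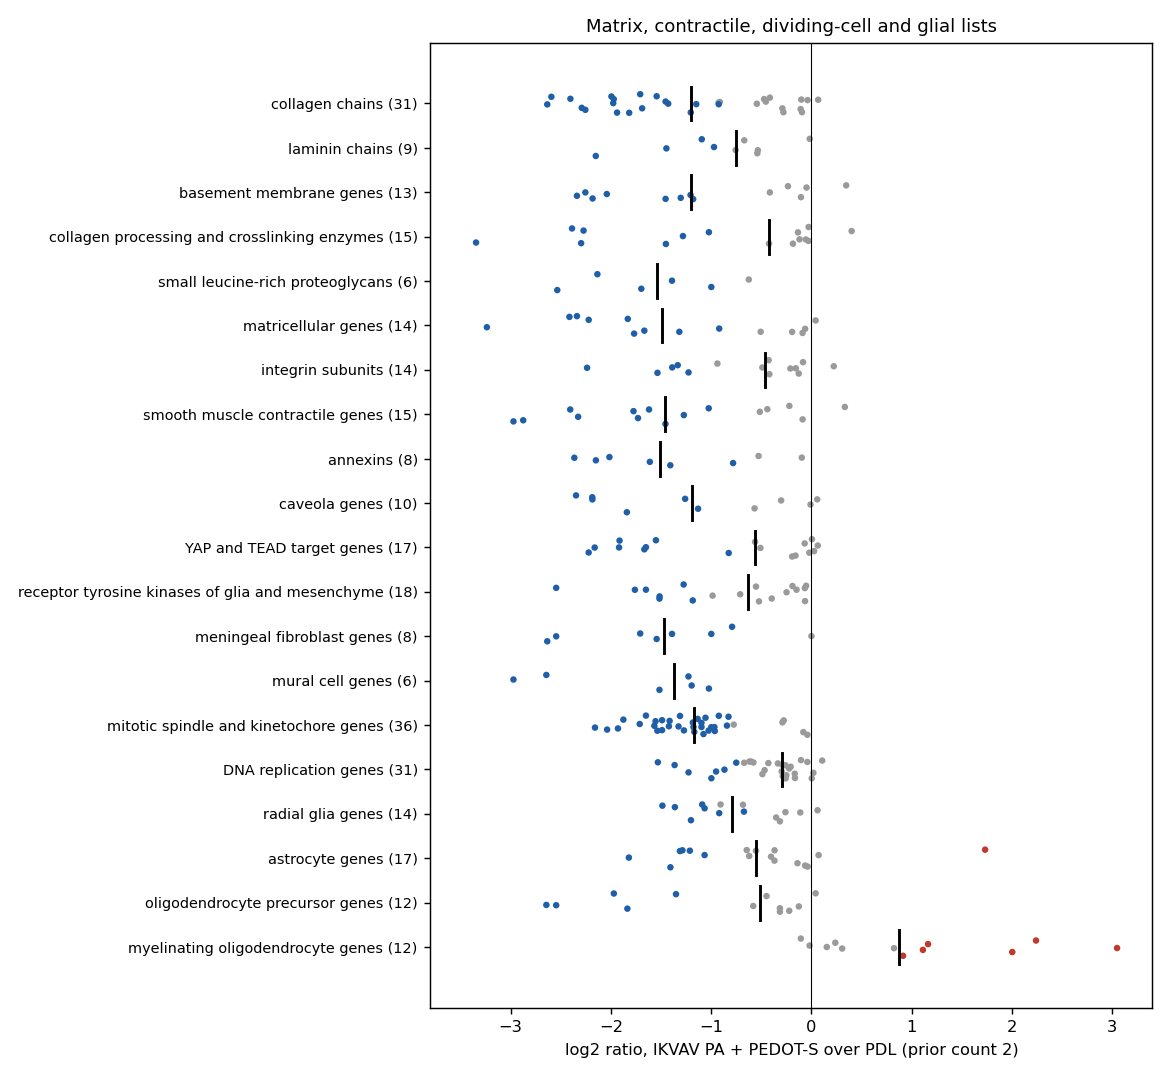
Each point is a compared gene of the list named at the left (number compared in brackets), placed by its log2 ratio, IKVAV PA + PEDOT-S over PDL, with blue for lower, red for higher and grey for within the 1.5-fold bound; black bars are list medians. Most matrix, contractile and spindle genes lie left of 0, and myelin genes are the list with a median to the right, at 0.87.

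Signalling lists held fewer calls. Of 18 compared receptor tyrosine kinases of glia and mesenchyme all had a negative ratio and 7 were lower. Pdgfra, the receptor of fibroblasts and oligodendrocyte precursors, stood at 1.81 against 10.7 CPM, Axl at 1.81 against 5.75 and Egfr, the receptor of dividing progenitors and glia, at 12.2 against 29.5. Of 28 compared TGF-beta and BMP genes 7 were lower and 1 higher. The ligand Tgfb1 had 9 counts against 87 and its receptor Tgfbr2 had 25 against 183. Among BMP ligands, Bmp6 had 155 counts against 478 and Bmp7 had 45 against 183. Id3, a BMP-induced repressor, was at -2.44, whereas Id2 and Id4 were at 0.13 and -0.03. The higher gene was Fst, follistatin, a secreted trap for activins, at 39.8 against 22.4 CPM (1.78-fold higher). The median of that list was -0.10. In the FGF list 1 of 14 genes was lower (7.14%) and in the Wnt list 2 of 29 (6.90%). In the IGF list 2 of 16 were lower (12.5%) and in the hedgehog list 1 of 11 (9.09%), against 3.76% of all genes. Medians of these lists were -0.10, -0.03, -0.15 and -0.21, and all 11 hedgehog genes had a negative ratio. The Notch and cytokine lists held 4 of 17 and 3 of 13 lower genes.

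YAP and TAZ are coactivators that turn on genes when cells spread on stiff or adhesive surfaces, acting through TEAD factors. Of 17 compared genes of this pathway 8 were lower (median -0.56). Wwtr1, which encodes TAZ, stood at 2.06 against 9.29 CPM, Yap1 at 4.37 against 7.75 and the factor Tead2 at 2.54 against 7.49. Ajuba, an adaptor that restrains the inhibitory kinases of the pathway, had 89 counts against 348. Other targets were close to the control, such as Amotl2 at 0.03. SRF and its coactivators drive actin and muscle genes in parallel. Their own transcripts were at 0.30 (Srf), -0.06 (Mrtfa) and -0.14 (Mrtfb), while 6 of 18 genes of that list were lower, all of them contractile or CCN genes named above.

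Among lists of dividing cells the calls differed in number, beside 3.76% of all genes that were lower. Of 36 genes of the mitotic spindle and kinetochore, all compared, 31 were lower and the median was -1.17. Of 31 compared DNA replication genes 7 were lower and the median was -0.30. Of 70 annotated histone genes of the Hist clusters 60 were below the filter, so the list covers a small part of the family. Among the 10 compared none was lower and 1, Hist1h1c, was higher (0.80), with a median of 0.30. Aurkb, the kinase of the chromosome passenger complex, stood at 0.868 against 3.96 CPM, Anln, anillin of the cleavage furrow, at 1.93 against 7.42, and Cenpf, a kinetochore protein, at 6.97 against 20.3 CPM. The replicative helicase subunits Mcm3, Mcm4 and Mcm5 had 314, 818 and 540 counts against 640, 1401 and 1004, and Mcm7 was at -0.17. Pcna, the replication clamp, was at -0.25 and Lig1, a ligase also used in repair, at -0.28. The difference between these lists was not tested.

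Of 27 cyclins, cyclin-dependent kinases and related genes 16 were lower (median -1.10). Ccnb1, the mitotic cyclin B1, stood at 1.82 against 7.67 CPM, Cdk1, its kinase, at 2.11 against 6.78, and the proliferation marker Mki67 had 990 counts against 3357 (3.33-fold lower). Top2a, which untangles chromosomes, was at 12.2 against 37.8 CPM. Cdk4 (20% of its exonic bases shared) and Ccnd3, which act in G1 phase, were at 0.06 and 0.07. Of 14 compared cell cycle inhibitors and quiescence genes 3 were lower and 1 higher. Cdkn2b and Cdkn2c, inhibitors of CDK4 and CDK6, were at -2.59 and -1.89, and Cdkn1c, p57 (31% of its exonic bases shared), was at 15.8 against 8.68 CPM.

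Kinesins, motors that walk on microtubules, include motors of the spindle and of axons. Of 37 compared kinesins 11 were lower and none higher, and 8 of the 11 are in the spindle list. The other 3 were Kif14 (-2.10), Kif15 (-1.28) and Kif18b (-1.83), which also serve division. The transport motors of axons stood at 0.03 (Kif1a), -0.00 (Kif1b), 0.04 (Kif5c) and -0.15 (Kif5a).

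The promoters of the spindle and kinetochore genes share a short sequence that can be shown. The cell-cycle homology region is a known promoter element of genes expressed in G2 and M phase, read by the DREAM and MuvB complexes. Its letters TTTGAA were searched on both strands in windows of RefSeq promoters (GRCm38.p6), from 250 bases before to 50 after the start of transcription. Of the 36 genes 31 had a window, and 21 of these (67.7%) held the letters, against 13.8% of 10151 compared genes with a window. In the 50 bases from the start on, 16 of 31 (51.6%) held them, against 1.81% of all. Of the 21 genes 20 were lower in the IKVAV PA + PEDOT-S library, and of the whole list 31 of 36 were. A link between the letters and the level was not tested. Stretches of 30 bases are given for the 8 lower genes with the letters past the start whose interval lay furthest from no difference, with each match in capitals (TTCAAA is the same element on the other strand). The first match begins 21, 31, 2, 29, 2, 40, 16 and 15 bases after the start base in the order shown.
Anln (chr9:22389168-22389197, minus strand): ggggcgctgaaaTTCAAAtTTTGAAcggcc
Knl1 (chr2:119047138-119047167, plus strand): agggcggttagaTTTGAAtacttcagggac
Cenpf (chr1:189688067-189688096, minus strand): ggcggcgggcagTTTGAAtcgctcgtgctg
Ndc80 (chr17:71526811-71526840, minus strand): gaaactttaaaaTTCAAAccgccttgggtt
Kif23 (chr9:61946780-61946809, minus strand): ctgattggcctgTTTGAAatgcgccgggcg
Bub1b (chr2:118598231-118598260, plus strand): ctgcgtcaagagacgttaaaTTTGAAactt
Cenpa (chr5:30666890-30666919, plus strand): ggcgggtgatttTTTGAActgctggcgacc
Ect2 (chr3:27153822-27153851, minus strand): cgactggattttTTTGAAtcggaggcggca
Anln holds the letters once on each strand in its stretch. Each of these genes was lower, from -1.33 for Ect2 to -1.94 for Anln. A match of letters is a description of the window and not a bound site.

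The same search was made for 2 other lists. The CArG box, the site read by SRF, was found in 3 of 14 smooth muscle contractile genes with a window (21.4%), against 1.57% of all. Of these Myl9 and Cnn2 were lower, at -2.42 and -1.78, and Myl6 was at -0.09. The 2 lower genes are shown with the box in capitals.
Myl9 (chr2:156775293-156775322, plus strand): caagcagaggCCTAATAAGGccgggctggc
Cnn2 (chr10:79988534-79988563, plus strand): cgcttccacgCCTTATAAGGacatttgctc
The boxes begin 161 and 56 bases before the start. The sterol regulatory element ATCACNCCAC was in none of 15 windows of cholesterol synthesis genes and in 0.207% of all, which says only that these exact letters are not there.

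Radial glia, the stem cells of the developing cortex, and astrocytes, which arise from them, were low in the IKVAV PA + PEDOT-S library by several of their markers. Of 14 compared radial glia genes 7 were lower (median -0.80). The lipid-binding protein Fabp7 stood at 39.8 against 112 CPM, the filament protein Nes at 31.4 against 80.8 and the glutamate transporter Slc1a3 at 27.6 against 57.8. Vim, vimentin, was at 124 against 198 CPM (-0.67). The stem cell factors Sox2, Sox9 and Pax6 were at -0.11, -0.35 and -0.69, and none was called. Intermediate progenitors, the next stage towards neurons, showed no lower gene among 8 compared. Insm1, a factor of these cells, was higher at 30.3 against 17.7 CPM (1.71-fold, interval 0.68 to 0.87).

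Of 17 compared astrocyte genes 6 were lower and 1 higher (median -0.55). The potassium channel Kcnj10 stood at 4.31 against 15.3 CPM, the gap junction protein Gja1 at 5.13 against 12.8 and the membrane protein Mlc1 at 4.11 against 9.56. Slc1a2, the main glutamate transporter, and Glul, glutamine synthetase, were at -0.14 and 0.07. The higher gene was Gfap, the filament of mature and reactive astrocytes, at 109 against 32 counts (log2 ratio 1.79, interval 1.21 to 2.41). Aqp4, the water channel, was at 78 against 103 counts (-0.38). Of 22 genes listed for reactive astrocytes 10 were compared, 6 were lower and none higher. Among the lower ones were Emp1 (1.94 against 9.88 CPM) and Cd109 (1.17 against 6.21), with Cd44 and Vim, which were named above in other lists. Which cells gave these values was not tested. In Notch signalling, which maintains radial glia, the receptors Notch1, Notch2 and Notch3 and the modifier Lfng were lower (-1.39, -0.85, -1.20 and -1.63), 4 of 17 compared, while the ligand Dll1 was at 0.03. Gli3, a hedgehog pathway factor of progenitors, was at 1.70 against 5.73 CPM.

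Oligodendrocyte precursors divide and carry Pdgfra and Cspg4, and mature cells wrap axons in myelin. Of 12 compared precursor genes 5 were lower and none higher (median -0.51). Olig1 and Olig2, the lineage factors, stood at 6.75 against 26.5 CPM and 4.34 against 15.6, and Cspg4, the proteoglycan NG2, at 1.08 against 6.91. Sox10, a factor needed throughout the lineage, was at -0.32. Of 20 myelinating oligodendrocyte genes 12 were compared, 6 were higher and none lower (median 0.87, summed level 124 against 74.2 CPM). Mal and Mobp passed the filter of 1 CPM through the IKVAV PA + PEDOT-S library alone, where they are higher. The part of this in the calls and the median was not tested. With a filter of 5 CPM in place of 1 CPM the median was 0.29.

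Mal, a proteolipid of compact myelin (chr2:127633226-127656695), had 120 counts against 13, 9.39-fold higher (interval 2.40 to 4.18). Mobp stood at 4.12 against 0.853 CPM, Mbp at 53.2 against 28.3, and Mag had 321 counts against 80. Myrf, the factor that turns on myelin genes, was at 2.17 against 0.991 CPM (2.19-fold). The rest of the program was close to the control, with Mog at 8.73 against 9.40 CPM, Cnp at 0.24 and the galactolipid enzyme Ugt8a at 0.15. These are low levels next to the neuronal genes of the same libraries. Pdgfra and Cspg4 also mark the fibroblast and mural cells above, so their values do not belong to 1 cell type.

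All 20 cholesterol synthesis genes had a positive ratio (median 0.40) and their summed level was 6363 against 5075 CPM. Only 3 passed the bound. These were Mvk (88.0 against 52.5 CPM) and Mvd (168 against 99.7), enzymes of the mevalonate steps, and the sterol isomerase Ebp (16.8 against 10.2). None of the 3 did with a 2-fold bound. Acat2, which starts the pathway in the cytosol, was at 264 against 201 CPM (0.39). Stard4, a sterol carrier, was at 207 against 124 CPM, and Insig1, the sterol-regulated anchor, was at 0.59 within the bound. Fatty acid synthesis had a median of 0.23 over 19 genes, with Fasn at 0.37, Acly at 0.44 and Scd2 at 0.42. None of these was called higher, and Elovl1 was called lower (-1.10).

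Of 12 compared genes of cholesterol efflux and apolipoproteins 3 were lower and the median was -0.11, and with a 2-fold bound 1 was lower. Abca1, the exporter to apolipoproteins, had 262 counts against 1714 (6.43-fold lower), Abcg1 stood at 4.47 against 8.62 CPM and Apoe at 7.10 against 12.3 CPM. Lrp1 and Vldlr, lipoprotein receptors of neurons, were at -0.07 and 0.04. Apoe is mainly an astrocyte gene in brain, and the part of the lower astrocyte markers in its value was not tested.

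Among housekeeping families small shifts ran through whole lists without a call. Of 80 compared cytosolic ribosomal protein genes 76 had a positive ratio (median 0.15, summed level 11830 against 10740 CPM), and 14 of them share over 10% of their exonic bases. All 7 compared mitochondrially encoded protein genes were negative (median -0.28), with mt-Co1 at -0.24 and mt-Nd5 at -0.41. Mitochondrial transcripts took 1.55% of counts in the IKVAV PA + PEDOT-S library and 1.92% in PDL. Nuclear-encoded respiratory chain genes had a median of 0.06 over 88 genes, proteasome subunits 0.02 over 35, and genes of glycolysis and glucose transport -0.06 over 23, with none called in any of these lists. Of the heat shock list Hspb8, Bag3 and Cryab were lower (-2.83, -1.75 and -1.34), which act together in small heat shock protein complexes (17% of the exonic bases of Cryab are shared), whereas Hspa8 and Hsp90ab1 of all cells were at -0.00 and -0.05.

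Genes of the integrated stress response, which includes amino acid import and synthesis, had a median of 0.23, with 19 of 22 positive. Slc7a3, a transporter of cationic amino acids, stood at 17.2 against 9.34 CPM (1.84-fold higher). Cebpb was at 3.09 against 1.49 CPM, with 21% of its exonic bases shared. Atf4, the central factor, and Asns, asparagine synthetase, were at 0.39 and 0.25. Slc1a5, a glutamine transporter, was at 8.86 against 4.47 CPM, while its relative Slc1a4 was at 0.31. Of 18 NRF2 and glutathione genes only Gpx8 was called (-1.20), and of 17 clock genes only Dbp, a clock output gene (2.69 against 1.37 CPM, 18% shared).

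The families that make neurons excitable and connect them held few calls. Of 155 compared ion channel subunits and transmitter receptors, 1 was higher (0.645%) and 2 lower (1.29%), against 0.446% and 3.76% of all genes, and the median was -0.01. The lower share of all genes falls with level, to 0.573% from 20 to 100 CPM and 0.0776% at 100 CPM or more. The 155 genes were not matched to others by level, so these shares do not show a trait of the families. The higher gene was the 2-pore potassium channel Kcnk12 (8.54 against 4.63 CPM), and the lower genes include the glial channel Kcnj10. Medians by family were -0.01 for 34 voltage-gated potassium channel alpha subunits, 0.00 for 21 calcium channel subunits, 0.03 for 16 ionotropic glutamate receptor subunits and -0.14 for 13 GABA-A receptor subunits. Grin1, the shared NMDA receptor subunit, was at -0.11, Gria2 of AMPA receptors at -0.13 and Gabra2 at -0.24.

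None of 80 compared genes of synaptic vesicles, release, postsynaptic scaffolds and peptide granules was called (median -0.02), and none of 66 guidance genes of the semaphorin, ephrin and Slit-Robo families (median 0.02). Over all genes 0.446% were higher and 3.76% lower, and at 100 CPM or more 0.194% and 0.0776%. An absence of calls among abundant genes is therefore not particular to these families. Syn1, a vesicle protein, stood at 434 against 484 CPM (-0.16), Dlg4, the scaffold PSD-95, at -0.14, and Camk2b, a synaptic kinase, at 0.02. The clustered protocadherins, which give neurons their surface identity, had a median of 0.00 over 54 genes, 34 of them with shared exons. Among 16 compared neuropeptide genes Cartpt (2.62 against 6.60 CPM) and Pdyn (0.881 against 1.82) were lower, and Sst, Cck and Npy were at 0.28, 0.13 and 0.02. Tubb6, a tubulin of non-neuronal cells, was the only lower one of 16 tubulins (353 against 876 counts), and the neuronal Tubb3 was at 0.06.

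**Figure D3:**
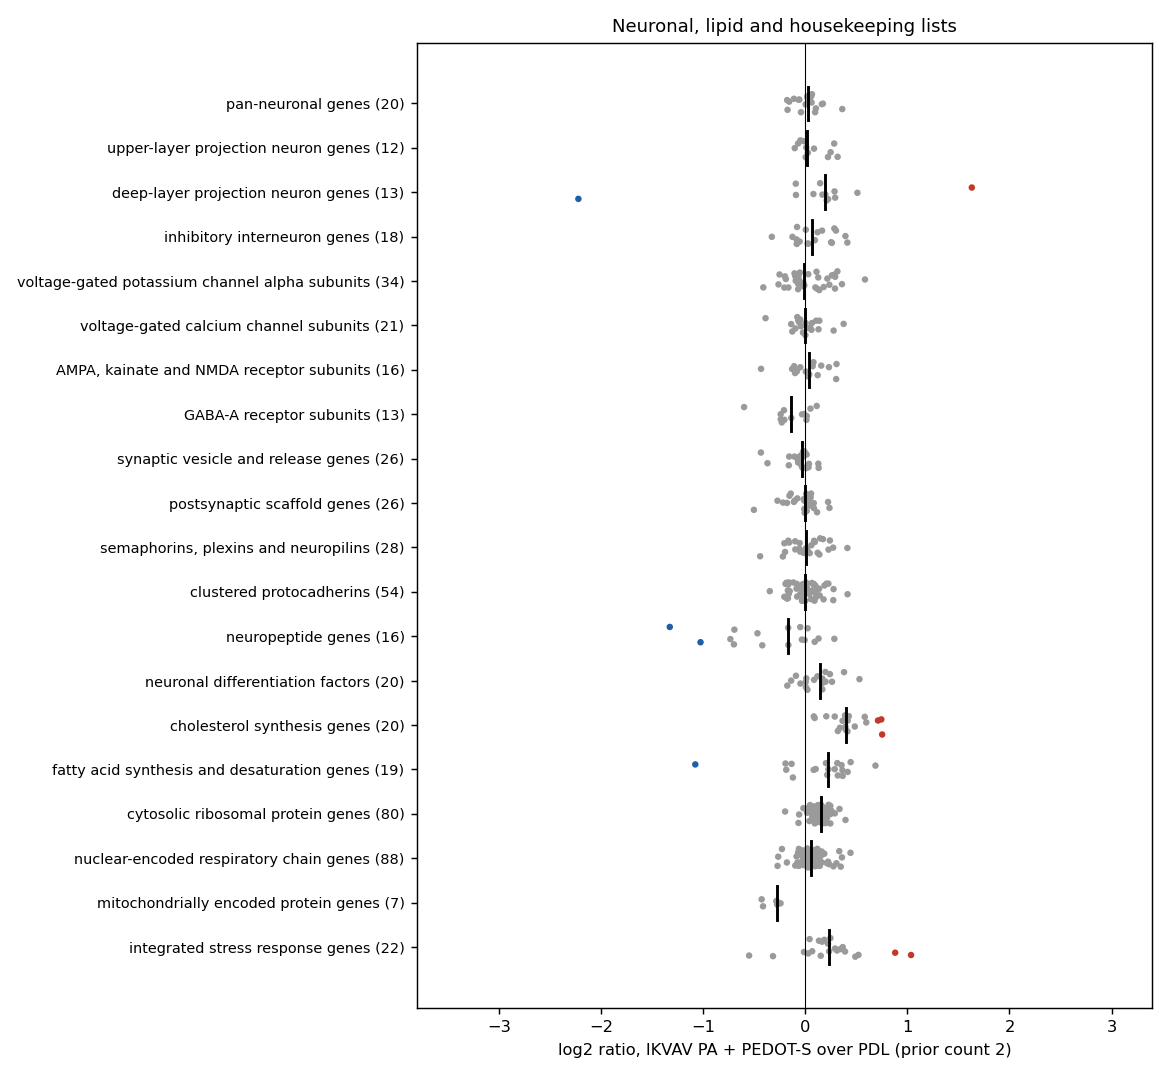
Points, colours and black median bars follow the plot of matrix and glial lists, for neuronal, lipid and housekeeping lists. Neuronal medians lie between -0.17 for neuropeptides and 0.20 for deep-layer genes, and all 20 cholesterol synthesis genes lie right of 0.

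Neuron classes were close between the libraries. Upper-layer genes had a median of 0.02 over 12 members and deep-layer genes one of 0.20 over 13. Of the deep-layer list Nxph4, a neurexin ligand of the deepest neurons, was higher (129 against 41 counts, 3.20-fold) and Ccn2, which also marks that layer, was lower. Bcl11b, Tbr1 and Fezf2, factors of deep-layer neurons, were at 0.17, 0.20 and 0.29. Interneuron genes had a median of 0.06 over 18 members with none called. Gad1, which makes GABA, was at -0.33 and Gad2 at -0.13. Glutamate is loaded into vesicles by the product of Slc17a7, which stood at 65.2 against 67.4 CPM.

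Of 20 neuronal differentiation factors 16 had a positive ratio (median 0.14), and none was called. Among the Sox factors Sox4, a factor of young neurons, was higher (407 against 256 CPM, 55% of exonic bases shared). Sox11, the near relative of Sox4, was at 0.46. Nhlh2, a helix-loop-helix factor of young neurons, was among the 15 highest genes, with 372 counts against 172 (2.20-fold). Of 13 compared Sox factors 2 were lower, Sox21 and Sox3 of progenitors (-1.17, with 19% of exonic bases shared, and -0.83). Foxm1, of dividing cells, was the lower one of 16 forkhead factors (3.94 against 10.1 CPM). Activity-dependent genes had no call among 22 early and 20 late members, with Fos at -0.24 and Bdnf at -0.29.

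The other genes among the 15 highest and 15 lowest fall mostly outside these families. The highest also include Plk5, a kinase relative expressed in neurons (3.19 against 1.43 CPM), Shisa8 (2.85 against 1.28) and Sap30l (22.4 against 12.4). The lowest include Lrrk1, a kinase (45 against 465 counts), Vcam1, an adhesion molecule (120 against 808), Tagln2 (132 against 844) and Ahnak, a large scaffold protein (127 against 784). Of the cytokine list Csf1, the growth factor of macrophages, was lower (3.42 against 15.4 CPM) and Cxcl12, a chemokine that guides interneurons, higher (14.5 against 8.32). The class I antigen gene H2-K1 was higher (12.9 against 7.48 CPM) and H2-D1 was at 0.59. The sequences of these 2 are close, so reads could be split between them. B2m, the light chain both need, was at -0.48.

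The third library of the series, IKVAV PA without PEDOT-S, was placed on the same scale. The comparisons of each scaffold with PDL share the control library, so their values are given side by side only. For Acta2 the levels were 78.5 in PDL, 26.5 in IKVAV PA and 9.98 CPM in IKVAV PA + PEDOT-S. For Col1a1 they were 34.9, 14.6 and 5.60 CPM, and for Abca1 21.5, 10.5 and 3.34 CPM. For Mki67 the scaffold libraries were level, at 42.1, 12.7 and 12.6 CPM. Cenpf, the kinetochore protein, followed that pattern at 20.3, 7.84 and 6.97 CPM, as did Olig1 at 26.5, 7.05 and 6.75 CPM. Mobp was at 0.853, 1.72 and 4.12 CPM, while Gfap was near PDL without PEDOT-S (0.402, 0.498 and 1.39 CPM). Mvd was at 99.7, 119 and 168 CPM, and Stard4 at 124, 126 and 207 CPM.

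**Figure D4:**
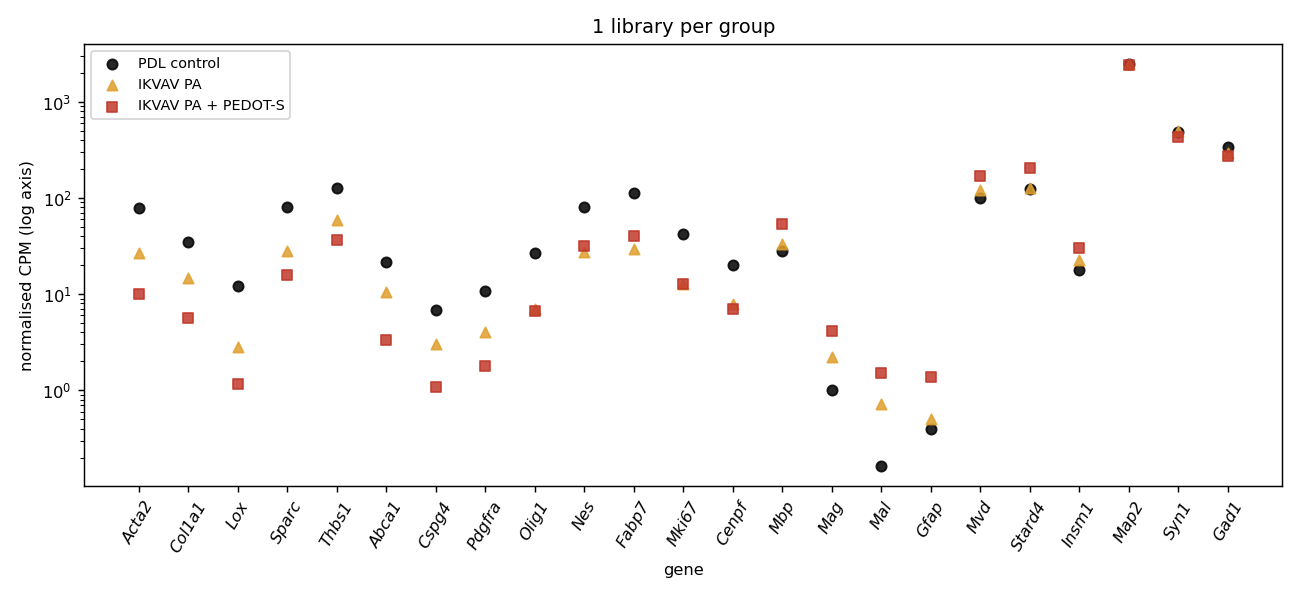
Normalised CPM (log axis) of 23 genes in the 3 libraries, with circles for PDL, triangles for IKVAV PA and squares for IKVAV PA + PEDOT-S, 1 library each and no error bars. Squares lie below circles for matrix, contractile and dividing-cell genes, such as Acta2 at 9.98 against 78.5 CPM, above them for Mal, Mag and Gfap, and on them for Map2.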

How the data were processed

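The files deposited by the authors hold whole-number counts per Ensembl gene, not normalised. The submitters' processing notes name DESeq2 1.14.1, HTSeq 2.0.2, STAR 2.7.5, cutadapt 4.2 and the build mm10, with no roles. Sources used here give neither strand setting nor annotation release, so overlapping and antisense genes cannot be told apart. Total RNA kits are named in the labels' protocols, whereas the molecule field reads polyA RNA.

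GENCODE M21 gave symbols for 54165 identifiers and older symbols in lists were matched through RefSeq synonyms. Counts were scaled with TMM factors over 3 libraries (edgeR 4.0.16, R 4.3.3), 0.991 for IKVAV PA + PEDOT-S and 1.01 for PDL. Ratios carry exact Clopper-Pearson 95% intervals. Promoter sequences are RefSeq's (GRCm38.p6). The calculation was tested on simulated counts with counting error alone, which says nothing of the variation between cultures. The 109 gene lists and the members were chosen with earlier results of these data known. Named are the 15 highest and 15 lowest protein-coding genes by the bound nearest to no difference (shared exons up to 10%), up to 3 called members per list and direction, the 2 most abundant per list, and 20 fixed genes. Others were chosen after their values were seen. Genes named by this rule but left out are not reported here.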

Additional observations from a re-analysis of the deposited data

How the results depend on the processing

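No paired analysis was possible because each group holds 1 library, and for the same reason no replicate could be left out. DESeq2 1.42.0 size factors gave 61 higher and 515 lower genes, total counts without factors 55 and 528, TMM over the 2 libraries 61 and 515, and setting the pan-neuronal median to no difference 55 and 529. Protein-coding genes alone gave 51 and 496, and leaving out genes with shared exons 42 and 473. The counts moved by over 1.5 times with the filter or the size rule. With 1 count in either library as the filter they were 257 and 1068 of 29836 genes, and with 5 CPM 35 and 234 of 10827. A 2-fold bound gave 13 and 257. An assumed biological coefficient of variation of 0.2 gave 11 and 214. Under it 15 of 18 lower collagen chains, 13 of 31 lower spindle genes, 1 of 7 lower radial glia genes, 3 of 6 higher myelin genes and none of 3 higher cholesterol synthesis genes were still called, and Mbp, Myrf, Nes, Vim, Fst, Nhlh2, Plk5, Sap30l, Shisa8, Slc1a5 and Slc7a3 were among 12 named genes that were not. Of 72 lists with a call 23 lost all of them under that variation and 18 with the 2-fold bound. Of 45 named genes that were followed, no called one changed sign. This was fixed in advance, because calls lie beyond 1.5-fold and the scale moved only by factors from 0.995 to 1.02. The median of the myelin list was 0.29 with the 5 CPM filter, that of the Cajal-Retzius list ranged from -0.06 to 0.47, and 25 of 107 list medians, none above 0.30 in size as reported, took both signs over the alternatives. Depth limits the weakest genes. Of genes under 2 CPM on average, 12.1% were lower and 0.920% higher, and their counting intervals are the widest. Some of them passed the filter through 1 library alone.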

Other observations

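Some genes of mitochondrial fatty acid oxidation, picked after their values were seen and therefore with no weight as a list, were lower in the IKVAV PA + PEDOT-S library. Cpt1a, which admits fatty acids to mitochondria, had 92 counts against 320, Acadl, a dehydrogenase of the cycle, 237 against 490, and Decr1 31 against 131. Plin2, which coats lipid droplets, was at 1.23 against 2.80 CPM. Nfe2l2, the gene of NRF2 itself, had 72 counts against 328 (log2 ratio -2.16), while most genes of the NRF2 and glutathione list lay within the bound.

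Some RNAs outside the naming rule stood out. The gene model Gm23935, annotated as a miRNA gene at chr16:11144125-11144181, had 7188 counts against 1288, which was 5.68-fold higher. In the IKVAV PA library it had 10205 unscaled counts. That library is deeper, with 124425958 counts in all against 79057998 for IKVAV PA + PEDOT-S. The nuclear RNAs Kcnq1ot1 and Snhg11 were lower (log2 ratios -0.73 and -0.72), and Meg3 was at 919 against 1260 CPM, within the bound. In the IKVAV PA library these 3 stood at 54.7, 54.4 and 1901 CPM, above both other libraries. The imprinted genes H19 (28 against 97 counts) and Mest (49.2 against 91.4 CPM, 23% of exonic bases shared) were lower. Erg28 and Scarb1, of sterol synthesis and lipoprotein uptake, were higher at 91.4 against 56.2 CPM and 51.1 against 32.1 CPM.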
